A study of Mus musculus with 3 samples.

Results

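The regions described here are 795 runs of neighbouring array probes in mouse embryonic stem cells whose 5-hydroxymethylcytosine (5hmC) ranked well above their 5-methylcytosine (5mC). They were chosen among 12797 runs of 3 to 7 consecutively numbered probes, and the other 12002 such runs serve as the comparison. For each run the median value of its probes was taken on each array and turned into a percentile among the 12797 runs. A run was a member when its 5mC percentile lay at least 20 points below its percentile on both 5hmC arrays. The members made up 6.21% of the runs. This share depends on the limit of 20 points and on how the arrays rank the runs, and nothing is read from it. Members were thus chosen by the medians of the deposited values on all 3 arrays, and the levels inside the runs are given as descriptions without a test.

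The cells were wild-type embryonic stem cells, which are cultured from the early embryo and are able to form all tissues of the body. There were 3 arrays with 2 colours each, and on each the Cy5 channel held precipitated DNA and the Cy3 channel whole genomic DNA of wild-type cells. The groups were 5hmC immunoprecipitation (the 5hmC array), 5hmC immunoprecipitation with the word IVT in the title, which the labels do not explain (the IVT array), and precipitation of methylated cytosine with an MBD reagent (the 5mC array). Strain, sex and passage of the cells are not given in the labels, which also name no separate cultures. Each group had 1 array, so nothing has a replicate and no difference could be tested for significance. Precision is limited by the number of arrays.

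5mC is written onto cytosines, mostly in CpG dinucleotides, by DNA methyltransferases. The TET enzymes, of which Tet1 and Tet2 are strongly expressed in embryonic stem cells, oxidise it to 5hmC, so a cytosine has to be methylated before it can be hydroxymethylated. Methyl-CpG binding domains bind 5mC and bind 5hmC far less well. In embryonic stem cells 5hmC is known from promoters of intermediate CpG content, from enhancers and from gene bodies.

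The values are signed numbers of the kind a log ratio of precipitated over genomic DNA gives. The sources used here state neither log base nor centring, so they are printed as deposited and no fold enrichment is drawn from them. That a higher value means more precipitated DNA is likely, since the labels list precipitated DNA as the first channel. If all 3 arrays ran the other way, the members would be regions with 5mC ranked above 5hmC. Genes and genome positions of the probes were not used here, so no region is named by gene and no probe sequence is shown.

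In the members the 5hmC signal was high, and in most of them the 5mC signal lay below the middle of the runs. On the 5hmC array the member medians ran from -0.98 to 3.49 with a median of 0.81, against -2.41 to 4.97 with a median of -0.04 in the other runs. IVT values of members ran from -0.98 to 2.12 with a median of 0.20, against -5.69 to 2.85 with a median of -0.52 elsewhere. For 5mC the members ran from -1.71 to 0.76 with a median of 0.08, against -2.32 to 4.79 with a median of 0.26. The sets overlapped on every array. The middle 50% of members lay between -0.28 and 0.24 for 5mC, a narrow band beside the -0.28 to 0.73 of the other runs, and the lower limits of these bands were the same to 2 decimals.

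**Figure D1:**
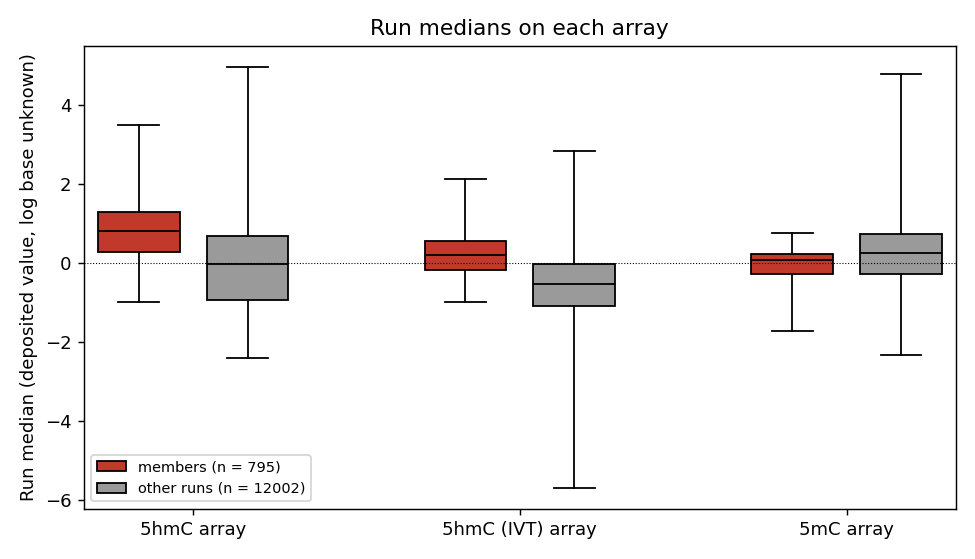
Run medians (deposited values, log base unknown) on each of the 3 arrays for the 795 members (red) and the 12002 other runs (grey). Boxes span percentiles 25 to 75, lines mark the median and whiskers reach the lowest and highest run. The members sit higher on both 5hmC arrays and in a narrow band near 0 for 5mC.

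By sign, 696 of the 795 members (87.5%) had a 5hmC value above 0, against 48.8% of the other runs. On the IVT array 521 members (65.5%) lay above 0, against 23.8% of the other runs. For 5mC 464 members (58.4%) still had a value above 0, against 65.6%. Since the centring of each array is unknown, a value of 0 is a mark on the scale and not the absence of a modification. In all 795 members the deposited 5hmC value exceeded the 5mC value, and the IVT value did so in 551 of them (69.3%). Whether the arrays share a scale is unknown, and the rule favours this direction, so nothing is read from these counts. The same limit holds where deposited values of single probes are set side by side between arrays.

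On the percentile scale the typical member was high in 5hmC and a little below the middle in 5mC. Its median percentile was 76.3 on the 5hmC array, 81.5 on the IVT array and 38.4 on the 5mC array. The highest 20% of runs on the 5hmC array held 342 members (43.0%), and the highest 20% on the IVT array held 422 (53.1%). The lowest 20% for 5mC held 130 members (16.4%), fewer than the 290 in the next class up and the 322 between percentiles 40 and 60. A further 53 members lay above percentile 60 for 5mC, and none above percentile 80, which the rule does not allow.

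Full opposition of the marks was rare among the members. Both 5hmC arrays lay above percentile 50 and 5mC below it in 472 members (59.4%). In 192 members (24.2%) the 5mC percentile was itself above 50, so these regions ranked above the middle for both marks and higher for 5hmC. Most of them were only a little above the middle for 5mC. Just 53 members lay in the 20% of runs next below the highest 20% for 5mC, and none in the highest. Another 35 members (4.40%) lay below percentile 50 on both 5hmC arrays and had still lower 5mC. Only 3 of the 795 members combined the lowest 20% for 5mC with the highest 20% on both 5hmC arrays, while 252 (31.7%) were in the highest 20% on both 5hmC arrays. Any run with the first combination is a member by the rule. Its rarity thus holds for all runs and does not set the members apart. The classes come from the same ranks as the rule, and the shares of the other combinations outside the members were not taken.

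**Figure D2:**
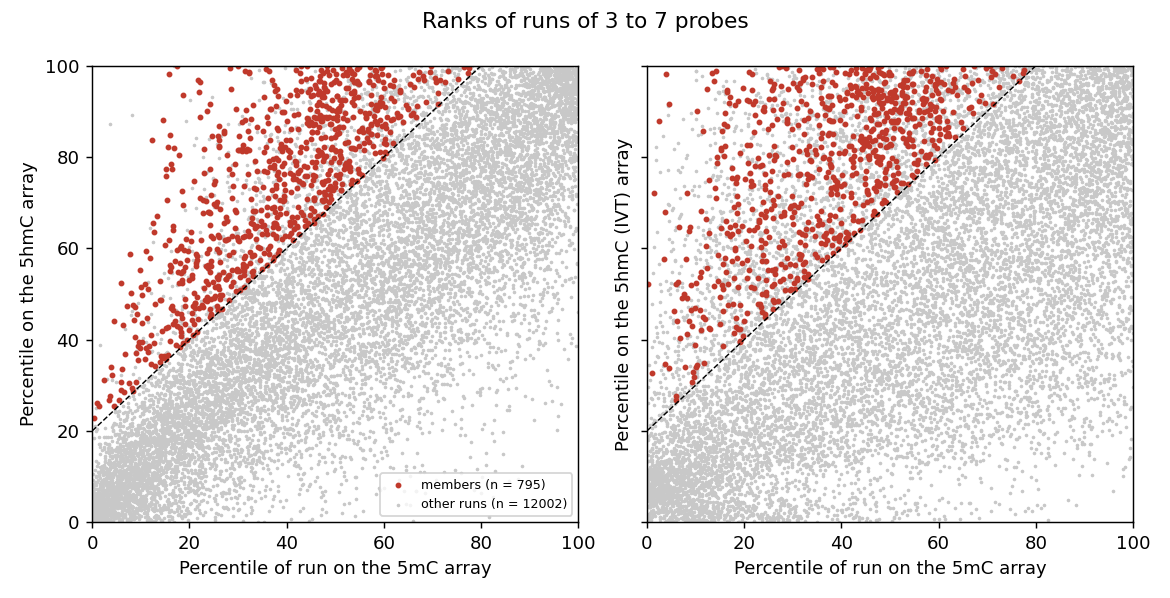
Percentile of each run on the 5hmC array (left) and on the 5hmC (IVT) array (right) against its percentile on the 5mC array, with the 795 members in red and the 12002 other runs in grey. The dashed line marks a difference of 20 points, and grey runs above it in one panel fell short of it on the other array. Members cluster at high 5hmC and at 5mC mostly below the middle.

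The size of the rank difference was modest in most members. The 5hmC percentile exceeded the 5mC percentile by a median of 33.2 points, with the middle 50% between 25.9 and 42.3. For the IVT array the median excess was 38.2 points, with the middle 50% between 29.1 and 49.3. The smaller of these differences, which decides membership, was below 30 points in 433 members (54.5%), at least 40 points in 133 and at least 50 points in 43. Members and excluded runs met without a gap at the limit of 20 points. The member nearest to it, with 5 probes, had percentiles of 65.6 on the 5hmC array, 79.5 on the IVT array and 45.6 for 5mC. Just outside was a run of 3 probes with 94.3, 80.4 and 60.4 on these arrays, which missed the limit on the IVT array.

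The 5hmC arrays placed the members at similar ranks. Their percentiles for the same member differed by a median of 10.01 points, with the middle 50% between 4.09 and 18.6, against a median of 15.2 points in the other runs. They lay within 20 points of each other in 617 members (77.6%). Members had to lie above 5mC on both arrays, so closer ranks are in part built into the choice. By the 5hmC array alone 1655 runs (12.9%) passed the limit of 20 points, and by the IVT array alone 2813 (22.0%). The members were thus 48.0% of the runs past the limit on the 5hmC array and 28.3% of those past it on the IVT array.

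The members with the largest differences show how the signal was spread over single probes. The largest belonged to the 3 probes from A_68_P23230625. Their 5hmC values were -0.46, 1.07 and 1.40, their IVT values -1.51, 0.74 and 1.20, and their 5mC values -0.78, -0.41 and -0.75. The last 2 probes were high on both 5hmC arrays and low for 5mC, while the first lay below the middle of all 3. By its medians this run lay at percentile 83.7 on the 5hmC array, 94.9 on the IVT array and 12.3 for 5mC.

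Next came the 3 probes from A_68_P28875979, with 5hmC values of 1.86, 2.11 and 0.97. Their IVT values were 0.56, 0.30 and 1.86, and their 5mC values -0.38, 0.26 and -0.50. Each of these probes had a higher value on both 5hmC arrays than on the 5mC array, although the probe highest on the 5hmC array was the lowest of the 3 on the IVT array. The percentiles of the run were 96.9, 91.7 and 21.8 on the 5hmC, IVT and 5mC arrays.

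The member ranked 3, with 4 probes, did not have one 5mC level. Its 5mC values were 2.21, -1.04, -0.59 and 0.25, so its first probe was among the highest for 5mC, at percentile 96.9 of all probes. The 5hmC values of this run were 1.69, 2.11, 0.36 and 1.64, and the IVT values 2.62, 3.39, -0.90 and 0.54. Its median 5mC of -0.17 therefore described none of its probes closely, and the SD of 5mC over the 4 probes was 1.43.

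The member ranked 4 had the highest 5hmC percentile of the members described singly, 99.99, with probe values of 3.52, 3.49 and 1.31. Its IVT values were 0.85, 0.91 and -0.77. For 5mC it had -0.12, 2.82 and -0.30, so the probe in the centre carried strong signal for both marks between neighbours low in 5mC. In the member ranked 5 the 5mC values of -0.72, -0.29 and -0.55 stayed low throughout. Its 5hmC values were 0.999, -0.02 and 1.26, against IVT values of -2.24, 1.34 and 0.56, so the 5hmC arrays disagreed on its first probe. The member ranked 6 had 5hmC values of 2.40, 0.25, 1.99 and 3.59 over its 4 probes. Its 5mC values were 1.35, 0.09, -0.26 and -0.56, lower at each probe than at the one before.

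The largest differences were lower in longer runs, which also held fewer members. The median of the smaller difference varied less, at 30.2, 27.5, 27.8, 27.1 and 26.3 points from 3 to 7 probes. The first member with 5 probes was ranked 15, with a smaller difference of 58.7 points, the first with 6 probes was ranked 16, with 57.2 points, and the first with 7 probes was ranked 52, with 49.0 points. The run of 6 probes had 5hmC values from 1.30 to 2.46 on every probe. Its IVT values were -0.65, 0.14, -0.54, 1.29, 1.10 and 1.97, so the IVT array was not high throughout. Its 5mC values were -0.70, 1.94, 0.20, -0.15, -0.62 and 1.70. The 5mC signal thus varied from probe to probe even where the 5hmC array was high on every probe. In the run of 7 probes the 5hmC values of 2.85, 2.07 and 2.53 on probes 4 to 6 stood above the other 4, which lay between -0.21 and 0.73. Its 5mC values there were -0.28, 1.18 and -0.69.

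**Figure D3:**
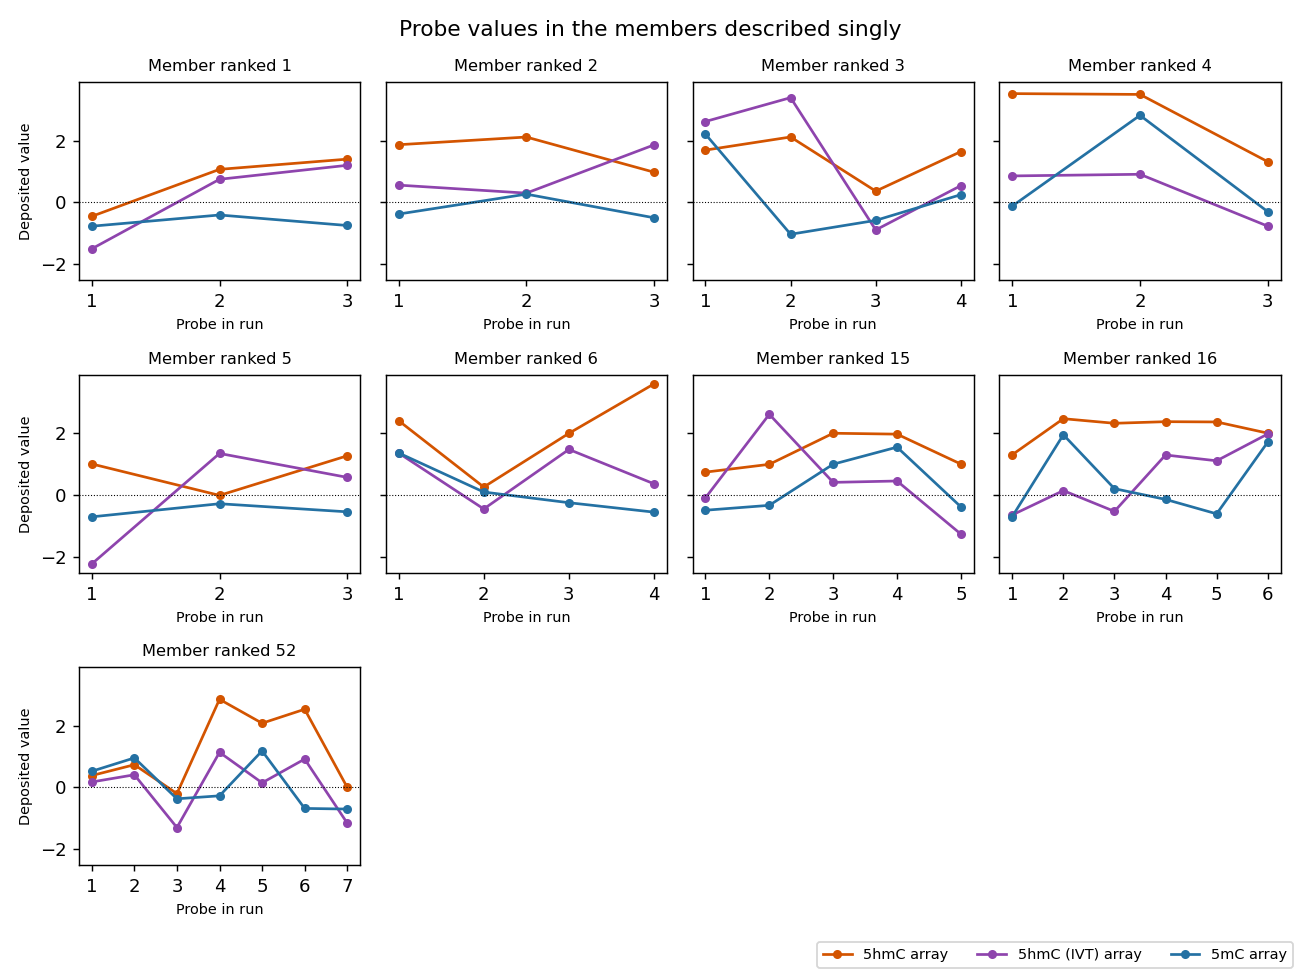
Deposited values (log base unknown) of the single probes in the members ranked 1 to 6 and in the first members with 5, 6 and 7 probes (ranked 15, 16 and 52), on the 5hmC array (orange), the 5hmC (IVT) array (purple) and the 5mC array (blue), against the place of the probe in the run. On the 5hmC array most probes of each run lie above their 5mC value, and single probes go the other way.

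Taken over all members, the order of the marks held for most probes and seldom for a whole run. For this count each probe was given its percentile among all 88734 probes. Of the 3262 probes in members, 2159 (66.2%) had a 5mC rank below both 5hmC ranks, and 411 (12.6%) had it above both. Among the 51763 probes of the other runs these shares were 31.3% and 36.1%. Members were chosen by the medians of these same values, so a difference in this direction is built into the choice. Every probe had its 5mC rank below both 5hmC ranks in 120 members (15.1%), and by at least 20 points in 8 members. More probes make this harder to meet, and it was met by 86 of 350 members of 3 probes, 26 of 187 of 4 probes, 4 of 133 of 5 probes, 4 of 76 of 6 probes and 0 of 49 of 7 probes. At least 1 probe had a 5mC rank above both 5hmC ranks in 355 members (44.7%).

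Members held a probe with strong 5mC about as often as other runs did. In 395 of the 795 (49.7%) at least 1 probe was among the highest 20% of all probes for 5mC, against 51.5% of the other runs. Within a run the SD over probes was 0.64 in the median member on the 5hmC array, against 0.51 in the other runs. It was 0.94 against 0.70 on the IVT array and 0.79 against 0.73 on the 5mC array. In the 943 runs with 5mC at least 20 points above both 5hmC arrays it was 0.49, 0.59 and 0.81 on these arrays. Whether the levels set by the rule bear on the SD was not tested. Probes also piled up at a 5mC value of 0.27, the most common value on that array. Within 0.05 of it lay 12.0% of the probes in members, against 8.71% of the probes in the other runs. Members were chosen by their 5mC medians, and the rule allows none in the highest 20%, so the choice itself bears on this share.

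The ends of the members differed little from their inner probes. On the 5hmC array the 1590 end probes had a median percentile of 68.6, against 73.9 for the 1672 inner probes. In the other runs ends were also lower, at 45.1 against 49.0. The IVT percentiles of members were 71.2 at the ends and 72.7 inside, and for 5mC they were 41.3 and 44.8. A lower end was thus seen for 5hmC in members and other runs alike, and 5mC in members did not climb towards the ends.

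Probes just outside the runs were not used to choose the members, and there the picture was different for each array. For every run the nearest probe on each side was taken if its number lay within 20 of the end of the run, which gave 669 flanking probes beside 584 members and 9220 beside 7880 other runs. Probe numbers were taken to follow position in the genome, which was not checked against coordinates. Beside members the flanking probes were high on the 5hmC array, with a median percentile of 70.3 and a middle 50% from 52.1 to 87.4, against 54.1 and 29.2 to 77.6 beside other runs. On the IVT array they were near the middle, at 55.8 with a middle 50% from 34.3 to 78.6, against 49.8 and 26.1 to 74.3. Their 5mC was high, at 63.9 with a middle 50% from 39.9 to 81.8, against 51.2 and 27.5 to 75.7. These ranges overlap widely, and with 1 array per group the differences were not tested. Between members and other runs of like 5hmC level the flanking 5hmC stood closer, as set out below. Among runs of high IVT level the flanking IVT was lower beside members, as also set out below.

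The low 5mC rank of the members thus did not extend to the next probe outside. In deposited units the flanking probes had a median 5mC of 0.55 beside members, against 0.25 beside other runs, while the member runs themselves had 0.08. A flanking probe had a higher 5mC percentile than the median over the probes of its own member in 499 of 669 cases (74.6%). Beside the other runs this was so in 49.5% of cases. The median difference was 22.7 points beside members and -0.39 points beside the other runs. For 5hmC the flanking probe was above its member in 48.1% of cases, by a median of -1.34 points, so the 5hmC level carried over. On the IVT array it was above in 31.4% of cases, with a median of -15.6 points, so the IVT level dropped outside the members. Members were chosen for low 5mC and high IVT medians, so part of a step in these directions from run to flank is built into the choice.

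The rank order that defines the members was mostly gone beside them. Of the 669 flanking probes 238 (35.6%) had a 5mC rank below both 5hmC ranks, against 33.8% beside the other runs. By at least 20 points on both arrays this was 95 (14.2%), against 10.4%. The median difference of the 5hmC array from the 5mC array was 5.30 points beside members, against 1.29 points beside other runs. For the IVT array it was -4.38 points, against -1.45. Beside the members 5mC thus ranked a little under the 5hmC array and a little above the IVT array.

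The flanking 5mC was also set out by the level of the run on each array. Among runs in the highest 20% on the 5hmC array the flanking probes had a median 5mC percentile of 68.9 beside members (309 probes), against 65.5 beside other runs. Between percentiles 60 and 80 it was 59.8 against 60.4, and between 40 and 60 it was 60.3 against 53.8. In these 3 classes the flanking 5hmC percentile was 79.3, 68.6 and 64.0 beside members, against 77.5, 65.6 and 57.7 beside other runs. The flanking IVT percentile there was 62.0, 53.9 and 50.3 beside members, against 60.2, 56.4 and 52.8 beside other runs. By the IVT array the gap in flanking 5mC was wider in the highest 20% of runs. There the flanking 5mC percentile was 67.8 beside members (349 probes), against 59.6 beside other runs. It was 60.2 against 57.3 between percentiles 60 and 80 and 53.9 against 52.4 between 40 and 60. The flanking IVT percentile in these 3 classes of IVT was 57.0, 54.9 and 52.6 beside members, against 61.5, 56.9 and 51.4 beside other runs. At like IVT level it was thus lower beside members in the highest 20% and between percentiles 60 and 80. Sorted by the 5mC of the run, members and other runs stood farther apart. In the lowest 20% of runs for 5mC the flanking 5mC percentile was 52.0 beside members (117 probes), against 29.4 beside other runs. In the next 20% it was 66.1 against 44.6, and between percentiles 40 and 60 it was 65.3 against 51.1. On the 5hmC array the flanking percentiles in these 3 classes of 5mC were 58.1, 69.3 and 75.2 beside members, against 20.6, 42.4 and 54.9 beside other runs. On the IVT array they were 54.9, 53.1 and 57.1 beside members, against 28.4, 46.6 and 50.3 beside other runs. Other runs in the lowest 20% for 5mC were thus typically flanked by probes low in both marks, and members there by probes near or a little above the middle. Within a class of 5mC the rule gives members the higher 5hmC ranks, so part of this contrast is built into the choice. Sorted by the 5hmC array, members and other runs stood much closer in flanking 5mC, as given above.

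**Figure D4:**
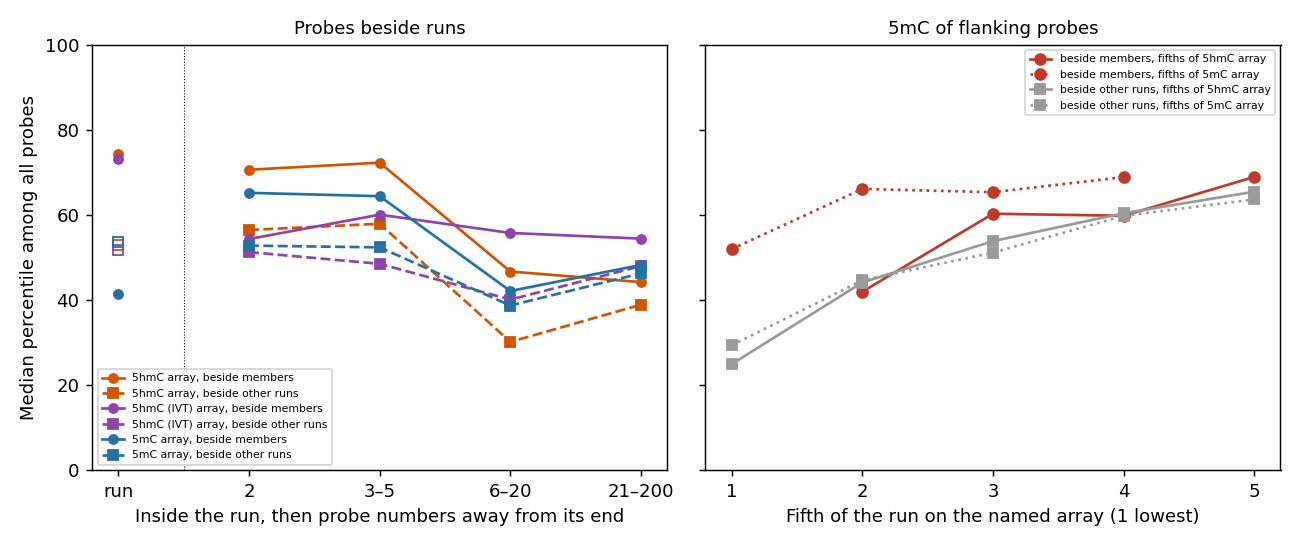
Left, median percentile among all probes inside the runs and at the nearest probe outside, by its distance in probe numbers, for members (circles, solid lines) and other runs (squares, dashed lines) on each array. Right, median 5mC percentile of flanking probes within 20 numbers against the class of the run, from the lowest (1) to the highest (5) 20% of runs on the 5hmC array (solid) or the 5mC array (dotted). Beside members 5mC is at 65.2 at a distance of 2 numbers, well above the 41.5 inside them.

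The arrays differed in how the flanking values changed with distance. At a distance of 2 numbers the median percentiles beside members were 70.6 for 5hmC and 65.2 for 5mC, against 56.5 and 52.8 beside other runs. At 3 to 5 numbers they were 72.3 and 64.4, against 57.9 and 52.4. From 6 to 20 numbers only 39 probes lay beside members, with 46.7 for 5hmC and 42.1 for 5mC, against 30.1 and 38.7. At 21 to 200 numbers the values were 44.2 and 48.2, against 38.9 and 46.3. The IVT percentile beside members varied less, with 54.3, 60.0, 55.8 and 54.4 over these distances, against 51.2, 48.5, 40.1 and 48.0 beside other runs. The 5mC of probes beside members was thus the higher by over 10 points up to 5 numbers away and by under 4 points beyond. On the 5hmC and IVT arrays the probes beside members were the higher at all 4 distances, and the gap was not smaller at 6 to 20 numbers than at 2. The runs were not matched by level here. Among runs of high IVT level the flanking IVT was lower beside members, as given above.

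Runs of 3 probes were members more often than longer runs, and this was also so for runs of the opposite kind, with 5mC at least 20 points above both 5hmC arrays. Of 4410 runs with 3 probes 350 were members (7.94%), against 5.28% of runs with 4 probes, 5.54% with 5, 5.12% with 6 and 5.10% with 7. For the opposite kind the shares were 9.48%, 7.53%, 6.13%, 4.04% and 5.31% from 3 to 7 probes. Runs of 3 probes made up 44.0% of the members and 34.5% of all runs. The median of few probes also varies more, and the SD of 5mC over runs was 0.79 for 3 probes and 0.68 for 7 probes. Its part in the excess of short runs was not tested. The median 5mC percentile of members showed no steady order with length, at 38.1, 36.6, 44.9, 39.4 and 49.0 from 3 to 7 probes.

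Members were scattered along the probe order. Over 89 blocks of 1000 probes the share of runs that were members ran from 1.61% to 11.0%, with a median of 6.02% and between 2 and 16 members in every block. Of the 795 members 67 (8.43%) had another member as their nearest run, against 6.56% of all runs, and 47 (5.91%) had a run of the opposite kind, against 7.31%. There were 943 runs of that opposite kind (7.37% of the runs), and 5.20% of them had a member as nearest run. In the last 3 blocks the median probe value of the IVT array lay between -1.01 and -0.88, below its range of -0.82 to -0.28 in the blocks before, and there 12 of 387 runs (3.10%) were members, against 6.31% in the blocks before. The part of the low IVT values in this share was not tested. The blocks before held 783 of the members. With the last 3 blocks left out and percentiles taken anew, 761 of 12410 runs were members.

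**Figure D5:**
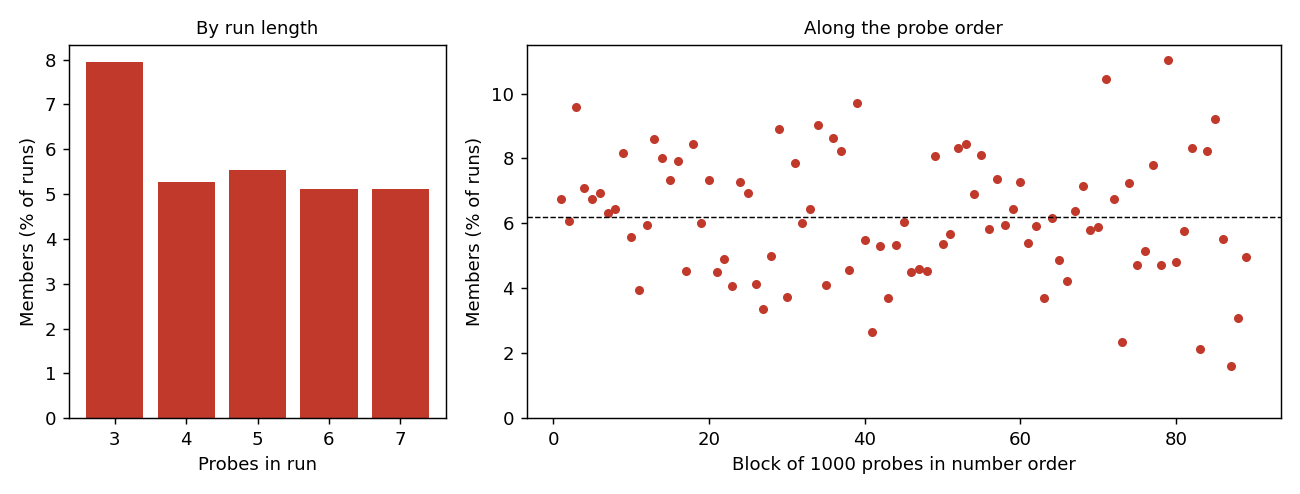
Share of runs that are members, in percent, by the number of probes in the run (left) and in each of 89 blocks of 1000 probes in number order (right, dashed line at the share over all runs). Runs of 3 probes reach 7.94% and the other lengths 5.10% to 5.54%, and blocks range from 1.61% to 11.0%.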

How the data were processed

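Per the labels, precipitated DNA (Cy5) and genomic DNA (Cy3) were hybridised to 2-colour Agilent arrays, 1 array per group. The deposited table gives 1 signed score per probe and array for 88736 probes. The sources used here state no software, normalization, log base, centring or genome build, and spot intensities were not used. Of these probes 88734 had a value on all 3 arrays, and 2 were left out. Maximal sets of consecutive probe numbers gave 26979 runs, 12797 of them with 3 to 7 probes. Percentiles are ranks over the number of runs, or over all probes where stated. Members and comparisons were chosen with earlier results of these data known. By rule at most 2 probe numbers are printed, the first probes of the members with the largest value of the smaller difference. Other members described singly are those ranked 3 to 6 and the first of each length. Gene lists planned for named probes were not used, because the table names no genes. Without replicates no p-value was computed. The classes of runs by percentile, the distances, the ends, the peak of 5mC and the other run lengths were added after seeing the data. Python 3.11.15, pandas 2.3.3 and scipy 1.17.1 were used, and the calls were tested on simulated data. Alternatives were other limits, means over probes, robust z values, single 5hmC arrays and the flanking distance.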

Additional observations from a re-analysis of the deposited data

How the results depend on the processing

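Of 45 alternative values 26 stayed within 1.5 times the main count or within the 95% binomial interval of the main value, which covers the spread over runs or probes only. Members numbered 795 in the main setting, 1853 with a limit of 10 points, 133 with 40 points, 1313 by robust z values, 1655 by the 5hmC array alone and 2813 by the IVT array alone. Runs of the opposite kind numbered 943, and 2070, 154, 1719, 1741 and 2855 in these settings. A looser limit or a single array keeps more runs by construction, and the cause of the shift with robust z values was not tested. In each of these settings, and with means over probes (721 and 765), runs of the opposite kind were the more numerous. Without the last 3 blocks there were 761 members and 882 runs of the opposite kind. The median excess of the 5hmC array over 5mC at flanking probes was 5.30 points, and 3.30 with 40 points and 2.86 by robust z values. For the IVT array the value of -4.38 stayed between -5.85 and -1.95. Members in which every probe had its 5mC rank below both 5hmC ranks made up 15.1%, and 11.2% with 10 points, 23.3% with 40 points and 20.7% with means over probes. A member was the nearest run of 8.43% of members, and of 16.3% with 10 points, 0% with 40 points and 10.7% by robust z values. In these settings 795, 1853, 133 and 1313 of the 12797 runs were members. The share over all runs was 6.56% in the main setting and was not taken in the others. These values are therefore not comparable between settings, and nothing is read from them. Members of 3 probes made up 44.0%, and 49.6% with 40 points. No replicate could be left out. No paired analysis was possible because the groups have a single array each. Signal over background is unknown.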

Other observations

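Runs of other lengths, which the choice of members left out, can be set on the same percentile scale of runs with 3 to 7 probes. Among 1606 runs of 8 to 23 probes, 67 (4.17%) had 5mC at least 20 points below both 5hmC arrays, and 50 (3.11%) had it at least 20 points above both. Among 7207 single probes these counts were 819 (11.4%) and 991 (13.8%), and among 5369 pairs 472 (8.79%) and 534 (9.95%). In the long runs the direction with 5hmC higher was thus the more numerous, against the order in single probes and pairs. Among runs of 3 to 7 probes only those of 6 had this order too, with 76 members against 60 runs of the opposite kind. The 67 long runs had a median 5hmC of 0.90, IVT of 0.26 and 5mC of 0.23, at percentiles 78.8, 83.3 and 48.2. They were therefore regions of high 5hmC with 5mC at the middle of the array. Long runs as a whole ranked high, with medians at percentile 61.7 for 5hmC, 57.7 for IVT and 59.0 for 5mC. The 819 single probes had a median 5mC of -0.29 at percentile 24.6 on that scale. Single probes and pairs vary more than medians of 3 to 7 probes and long runs vary less, so percentiles and shares past the limit are not comparable between these lengths.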
